A study of Mus musculus with 14 samples.

Results

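The epithelial-mesenchymal state genes are 10 genes whose levels set a sheet-forming epithelial cell apart from a migratory mesenchymal cell: *Cdh1*, *Epcam*, *Esrp1*, *Cdh2*, *Vim*, *Snai1*, *Snai2*, *Zeb1*, *Zeb2* and *Twist1*. They were taken by symbol through the RefSeq identifiers of the RNA-seq tables, and all 10 were found among the 22471 genes that had 1 symbol in every table. The 11 RNA-seq libraries come from mouse cells and tissue of C57BL/6 background. Undifferentiated embryonic stem (ES) cells were the wild-type line JM8 and the *Taf9b* knock-out line Taf9b_BG10, in which a *LacZ-Neo* cassette stands in for the protein-coding exons of the X-linked gene, so that each genotype is 1 male cell line and the knock-out is 1 clone. Both lines were grown with LIF on inactivated mouse fibroblasts, and both were then turned into embryoid bodies (EBs) with retinoic acid and the smoothened agonist SAG and sequenced on days 2, 4 and 6. The remaining libraries are lumbar spinal column of newborn littermates, WT and *Taf9b* KO, and newborn WT spinal cord. Chromatin immunoprecipitation (ChIP-seq) with antibodies against TAF9B and RNA POL2 came from motor neuron EBs of WT HBG3 cells, which carry GFP under the *Mnx1* promoter, and the IgG control was not analysed here. Each condition is 1 library, so no spread between replicates could be measured, no difference between conditions was tested, and neighbours in an order of levels cannot be separated by their error.

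*Cdh1* (E-cadherin) joins epithelial and ES cells at adherens junctions, and *Epcam* is an adhesion molecule of the same cells. *Esrp1* is an RNA-binding protein that holds splicing in the epithelial pattern. *Cdh2* (N-cadherin) takes the place of E-cadherin in neural plate and mesenchyme, and *Vim* encodes the intermediate filament vimentin of mesenchymal cells and neural progenitors. *Snai1*, *Snai2*, *Zeb1* and *Zeb2* are zinc-finger repressors that bind E-boxes with the core CACCTG and are known to repress *Cdh1*, and *Twist1* is a basic helix-loop-helix factor of mesoderm and neural crest. When ES cells become neural cells they exchange E-cadherin for N-cadherin, and *Zeb2* is a known factor of neural induction, while *Snai1*, *Snai2* and *Twist1* are better known from mesoderm, neural crest and fibroblasts.

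The targeted gene went against the labels in every culture. In the ES libraries *Taf9b* had 0.537 FPKM (fragments mapped to a transcript, scaled by its length and by the size of the library) under the label WT and 3.06 FPKM under the label KO. On day 2 it was at 0.516 and 4.08 FPKM, on day 4 at 1.96 and 4.27 FPKM and on day 6 at 1.37 and 4.01 FPKM, again higher in the library labelled KO. Spinal column labelled WT had 6.65 FPKM of it, and spinal column labelled KO had 3.31 FPKM. The value is 1 number per gene and does not separate the replaced exons from the rest of the transcript, and every direction below is therefore that of the KO label relative to the WT label.

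The promoters of 4 members are shown: *Snai1* and *Vim* because ChIP-seq peaks lie on them, *Epcam* because it holds the E-box of the repressors among the members, and *Twist1* as a promoter with neither. Each holds 300 bases that end shortly after the RefSeq start, 5′ to 3′ on the gene's own strand, as RefSeq gives it for GRCm38.p6, and the promoter table held 5 of the 10 members. Capitals mark the E-box of the Snai and Zeb repressors (CACCTG, or CAGGTG on the other strand) in *Snai1* and *Epcam*. They also mark the letters of a TATA box (TATAAA, or TTTATA on the other strand) in *Vim* and *Twist1*, wherever in the window these fall. No match of one motif overlapped a match of the other.
Snai1: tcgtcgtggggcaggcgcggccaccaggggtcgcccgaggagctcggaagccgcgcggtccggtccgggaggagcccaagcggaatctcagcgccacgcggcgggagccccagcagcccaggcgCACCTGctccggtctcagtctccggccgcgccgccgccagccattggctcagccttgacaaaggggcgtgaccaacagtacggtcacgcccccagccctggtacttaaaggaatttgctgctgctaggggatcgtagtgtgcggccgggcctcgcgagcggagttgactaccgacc
Epcam: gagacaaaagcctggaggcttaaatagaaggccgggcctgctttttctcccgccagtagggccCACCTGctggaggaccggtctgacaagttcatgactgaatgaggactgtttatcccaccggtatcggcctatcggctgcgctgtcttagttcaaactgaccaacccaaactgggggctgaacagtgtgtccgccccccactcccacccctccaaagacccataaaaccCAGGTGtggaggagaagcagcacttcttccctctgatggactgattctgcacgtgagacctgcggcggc
Vim: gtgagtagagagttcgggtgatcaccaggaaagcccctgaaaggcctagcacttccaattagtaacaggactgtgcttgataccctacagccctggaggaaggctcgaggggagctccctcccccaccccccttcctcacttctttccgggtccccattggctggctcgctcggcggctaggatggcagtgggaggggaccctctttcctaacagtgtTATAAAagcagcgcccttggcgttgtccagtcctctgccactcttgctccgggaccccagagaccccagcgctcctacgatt
Twist1: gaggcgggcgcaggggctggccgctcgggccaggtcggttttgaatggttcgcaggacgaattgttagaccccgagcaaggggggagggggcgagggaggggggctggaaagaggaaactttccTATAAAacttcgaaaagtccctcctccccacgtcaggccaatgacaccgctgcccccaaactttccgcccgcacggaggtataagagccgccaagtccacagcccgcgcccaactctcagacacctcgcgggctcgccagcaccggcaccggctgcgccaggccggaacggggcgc
The *Snai1* promoter (chr2:167537945-167538244) held 1 E-box, CACCTG at base 125 of the window. The *Epcam* promoter (chr17:87635729-87636028) held 2, CACCTG at base 64 and CAGGTG at base 232. Of all 32851 promoters in the table, 20.2% held an E-box of either orientation. The *Vim* promoter (chr2:13574061-13574360) held TATAAA at base 219 and the *Twist1* promoter (chr12:33957421-33957720) held it at base 125, and 13.6% of all promoters held a TATA box of either orientation. The 4 *Zeb2* promoters in the table held neither motif. A match describes the letters of the window and not a bound site. The TATAAA of *Twist1* lies farther from the start than that of *Vim*, and whether either works as a TATA box was not tested.

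The epithelial members were higher in ES cells than in tissue. *Cdh1* (mm9 chr8:109127251-109194146) was at 146 FPKM in the ES library labelled WT and 143 FPKM on day 2, and then at 27.8 FPKM on day 4 and 24.3 FPKM on day 6. In the libraries labelled KO it was at 124, 135, 103 and 79.9 FPKM over the same 4 stages. The fall after day 2 was thus 5.16-fold in the series labelled WT and 1.31-fold in the series labelled KO. In tissue *Cdh1* was at 3.12 FPKM in the spinal column labelled WT, 4.41 FPKM in that labelled KO and 2.03 FPKM in spinal cord, below every culture.

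*Epcam* (mm9 chr17:88035319-88050446) followed *Cdh1* at a larger range. It was at 156, 204, 23.7 and 40.2 FPKM in the ES, day 2, day 4 and day 6 libraries labelled WT. In those labelled KO it was at 159, 231, 81.2 and 90.8 FPKM. The drop from day 2 to day 4 was 8.59-fold in the former and 2.84-fold in the latter. Spinal column labelled WT held 0.428 FPKM and spinal column labelled KO 4.14 FPKM, and spinal cord was the lowest of all libraries at 0.143 FPKM.

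*Esrp1* (mm9 chr4:11259080-11313930) was the least abundant of the epithelial members. Its levels were 24.1, 32.8, 4.85 and 2.50 FPKM over the stages labelled WT and 27.3, 38.9, 26.0 and 6.90 FPKM over those labelled KO. The day 4 library labelled KO stood close to the ES cells, whereas the day 6 library labelled KO had fallen 3.77-fold from it. In tissue *Esrp1* was at 0.0565 FPKM in the spinal column labelled WT and at 1.97 FPKM in that labelled KO, and it is listed at 0 in spinal cord.

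**Figure D1:**
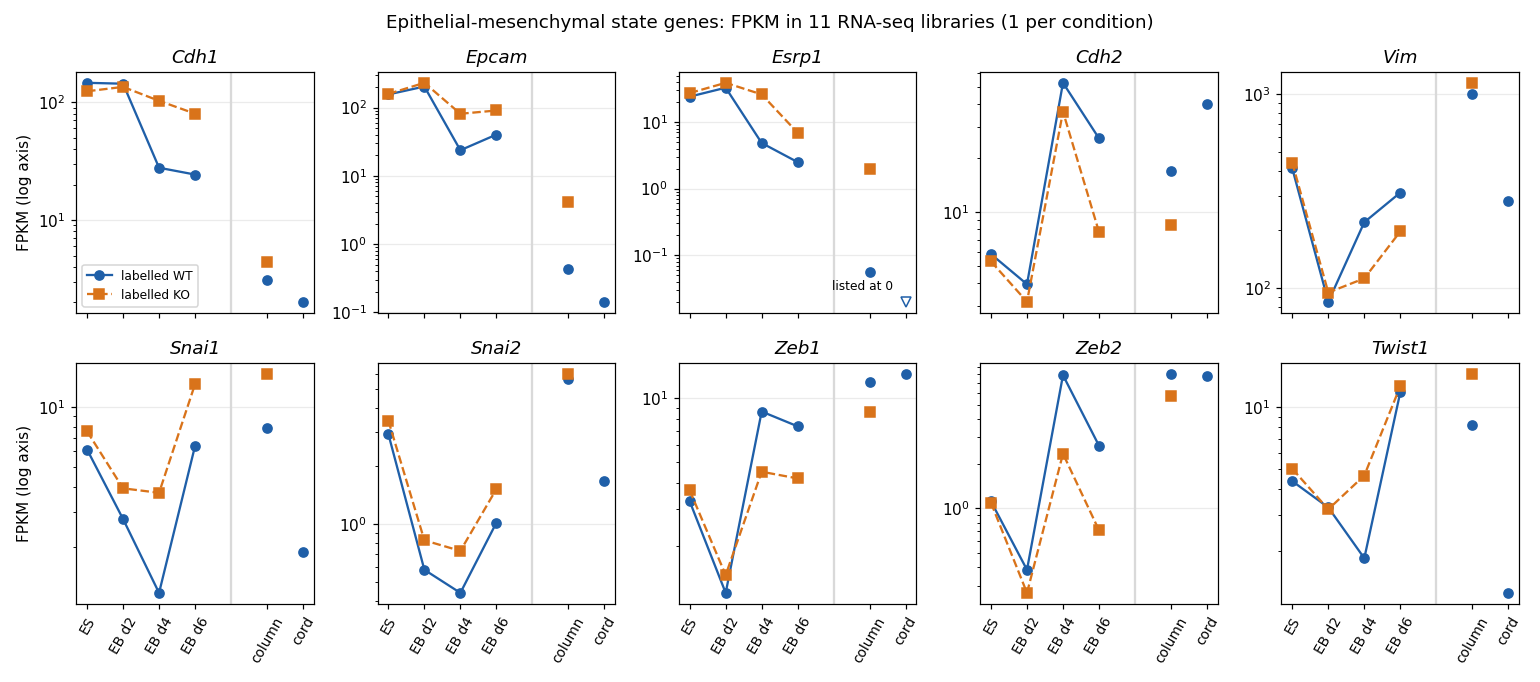
FPKM of the 10 genes (log axes, each panel with its own range) in ES cells, EBs of days 2, 4 and 6, newborn spinal column and spinal cord. Blue circles are libraries labelled WT and orange squares libraries labelled KO, 1 library per point. *Cdh1*, *Epcam* and *Esrp1* part between the labels from day 4, with 27.8 against 103 FPKM for *Cdh1*, and the open triangle marks *Esrp1* listed at 0 in spinal cord.

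*Cdh2* (chromosome 18, mm9 16747386 to 16967755) was low in ES cells and rose between days 2 and 4. It was at 5.82, 3.95, 52.7 and 25.8 FPKM in the stages labelled WT and at 5.30, 3.15, 36.4 and 7.74 FPKM in those labelled KO. The rise from day 2 to day 4 was 13.3-fold and 11.5-fold, so both series went up by a similar factor. From day 4 to day 6 *Cdh2* fell 2.04-fold in the series labelled WT and 4.70-fold in that labelled KO. Spinal cord was at 40.1 FPKM, spinal column labelled WT at 17.1 FPKM and spinal column labelled KO at 8.41 FPKM.

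The ratio of both cadherins shows the exchange in 1 number. *Cdh1* was 25.1 times *Cdh2* in the ES library labelled WT and 36.3 times on day 2, and the ratio was 0.527 on day 4 and 0.942 on day 6. In the libraries labelled KO it was 23.4, 42.7, 2.82 and 10.3. *Cdh2* exceeded *Cdh1* in both EB libraries labelled WT of days 4 and 6 and in neither of those labelled KO. In tissue *Cdh2* exceeded *Cdh1* in all 3 libraries, with ratios of 0.183 and 0.524 in spinal column labelled WT and KO and 0.0506 in spinal cord.

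**Figure D2:**
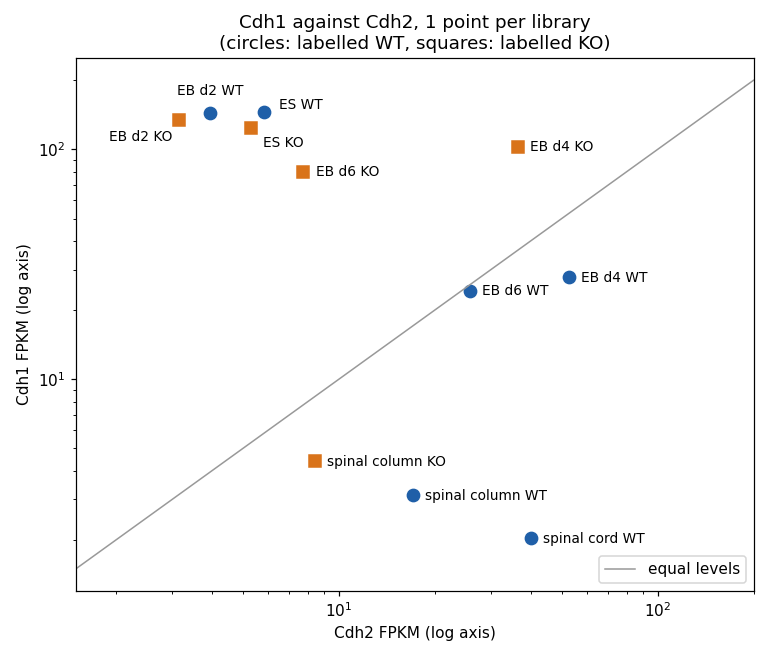
*Cdh1* against *Cdh2* in FPKM (both axes log), 1 point per library, with circles for libraries labelled WT, squares for those labelled KO and a line of equal levels. The ES and day 2 libraries sit at the upper left, EBs labelled WT of days 4 and 6 and the tissues lie under the line, and the EBs labelled KO of days 4 and 6 lie above it at ratios of 2.82 and 10.3.

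*Vim* (mm9 chr2:13495554-13504453) was the most abundant member in every library except both of day 2, where *Epcam* was. It was at 413, 85.3, 219 and 311 FPKM in the stages labelled WT and at 442, 95.1, 112 and 196 FPKM in those labelled KO. Both series fell from ES cells to day 2, by 4.84-fold and 4.65-fold, and the series labelled WT then rose 2.56-fold by day 4 against 1.18-fold. Spinal column held the highest levels, 1004 FPKM in the library labelled WT and 1140 FPKM in that labelled KO, and spinal cord held 282 FPKM.

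*Zeb1* (chromosome 18, mm9 5591858 to 5775465) and *Zeb2* (mm9 chr2:44839154-44972915) rose with *Cdh2*. *Zeb1* was at 3.27, 1.21, 8.66 and 7.37 FPKM in the stages labelled WT and at 3.68, 1.47, 4.50 and 4.19 FPKM in those labelled KO. *Zeb2* was at 1.11, 0.384, 7.88 and 2.64 FPKM in the stages labelled WT and at 1.09, 0.269, 2.33 and 0.710 FPKM in those labelled KO. Between days 2 and 4 *Zeb2* went up 20.5-fold in the series labelled WT and 8.68-fold in that labelled KO, and *Zeb1* 7.17-fold and 3.07-fold. In spinal column labelled WT and KO and in spinal cord *Zeb1* was at 11.9, 8.63 and 13.0 FPKM and *Zeb2* at 8.03, 5.68 and 7.79 FPKM.

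*Snai1* (mm9 chr2:167363695-167368314) had a trough on day 4 instead of a peak. It was at 6.14, 2.75, 1.17 and 6.40 FPKM in the stages labelled WT and at 7.57, 3.92, 3.72 and 13.1 FPKM in those labelled KO. *Twist1* (mm9 chr12:34642536-34644682) was at 4.38, 3.27, 1.85 and 11.8 FPKM in the former and at 5.03, 3.20, 4.67 and 12.7 FPKM in the latter. The day 4 library labelled WT was the lowest culture for both genes, and the library labelled KO of that day stood above it. *Snai2* (mm9 chr16:14705945-14709488) stayed near or under 1 FPKM in EBs, at 0.578, 0.439 and 1.01 FPKM on days 2, 4 and 6 labelled WT and 0.822, 0.725 and 1.52 FPKM labelled KO, against 2.93 and 3.44 FPKM in ES cells.

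In tissue the 3 genes were higher in spinal column than in spinal cord. Spinal column labelled WT held 7.87 FPKM of *Snai1*, 5.65 FPKM of *Snai2* and 8.19 FPKM of *Twist1*. Spinal column labelled KO held 14.7, 6.00 and 14.5 FPKM. Spinal cord held 1.89, 1.66 and 1.26 FPKM, in contrast to *Cdh2*, which was higher in spinal cord than in either spinal column.

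To compare the labels, a gene was called past 2-fold when its FPKM differed more than 2-fold and was above 1 in at least 1 of both libraries. None of the 10 members was past 2-fold in ES cells, where 1.04% of 11830 genes were, and their median log2 ratio was 0.13 against 0.02 over all genes. *Cdh1* had a log2 ratio of -0.24 there and *Snai1* of 0.30, the lowest and the highest of the 10. On day 2 none was past 2-fold either, against 2.48% of 11768 genes. *Snai1* and *Snai2* had the highest ratio, 0.51 for both, with *Snai2* under 1 FPKM in both libraries.

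On day 4, 5 members were higher in the library labelled KO, against 12.1% of 12342 genes, and 1 was lower, against 4.31%. The higher ones were *Esrp1* (5.37-fold), *Cdh1* (3.70-fold), *Epcam* (3.42-fold), *Snai1* (3.17-fold) and *Twist1* (2.52-fold). *Zeb2* was 3.38-fold lower. *Vim* and *Zeb1* fell just short of the limit, at 1.94-fold and 1.92-fold lower, and *Cdh2* was 1.45-fold lower. With 1 FPKM added to both values *Twist1* was no longer past 2-fold. The set thus holds all 3 epithelial members on the higher side, and the transcription factors on both sides. The median log2 ratio of the members was 1.03 and that of all genes -0.03.

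On day 6, 4 members were higher in the library labelled KO, against 10.5% of 12781 genes, and 2 were lower, against 9.85%. *Cdh1* was 3.29-fold, *Esrp1* 2.76-fold, *Epcam* 2.26-fold and *Snai1* 2.04-fold higher. *Zeb2* was 3.72-fold and *Cdh2* 3.33-fold lower. *Zeb1* at 1.76-fold and *Vim* at 1.58-fold lower were within the limit, and *Twist1*, past it on day 4, was at a ratio of 1.07. With 1 FPKM added *Snai1* was no longer past 2-fold, and the log2 ratio of *Zeb2* went from -1.89 to -1.09 while that of *Cdh2* went from -1.74 to -1.62. The members' median log2 ratio was 0.34, with all genes at -0.002.

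In spinal column 2 members were higher in the library labelled KO, against 8.98% of 13998 genes, and 1 was lower, against 8.49%. *Epcam* was 9.66-fold and *Esrp1* 34.8-fold higher, both from under 1 FPKM in the library labelled WT, and with 1 FPKM added to both values their log2 ratios of 3.27 and 5.12 came down to 1.85 and 1.49. *Cdh2* was 2.03-fold lower and no longer past 2-fold with 1 FPKM added. *Cdh1* was within the limit at 1.41-fold higher, as were *Snai1* at 1.86-fold and *Twist1* at 1.77-fold higher. The median log2 ratio was 0.34 for the members and 0.05 for all genes.

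**Figure D3:**
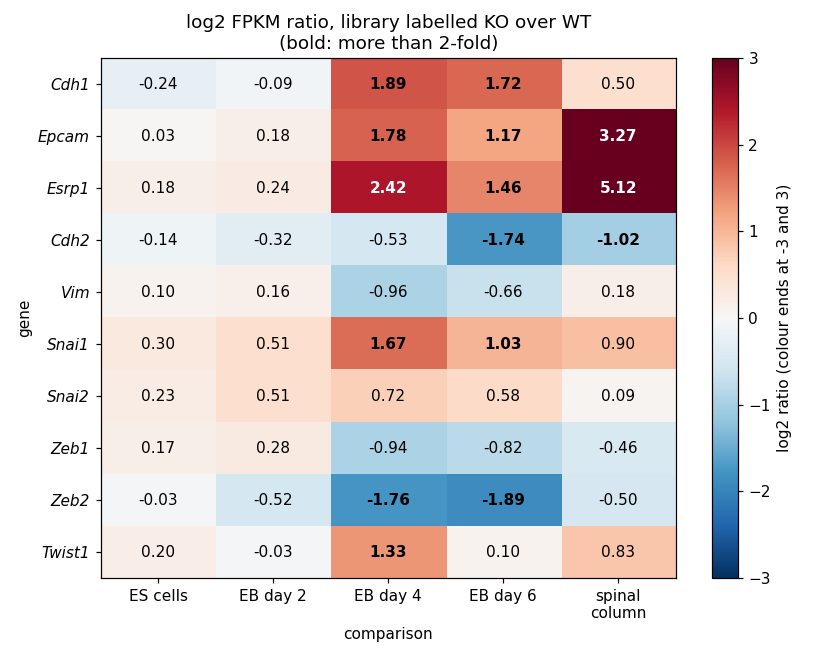
Log2 FPKM ratio of each gene, label KO over label WT, in the 5 comparisons, with red for higher and blue for lower and the ratio written in each cell (bold past 2-fold). ES cells and day 2 stay between -0.52 and 0.51. On days 4 and 6 the 3 epithelial genes and *Snai1* are higher while *Cdh2*, *Vim*, *Zeb1* and *Zeb2* are lower.

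To place the cultures between stem cell and tissue, the same genes were followed within each label. These ratios cross separately normalized tables, and the comparisons of a label share its ES library. From ES cells to day 2, 5 members fell past 2-fold in the libraries labelled WT, against 7.94% of 12073 genes, and 4 in those labelled KO, against 8.35% of 12077 genes. *Vim*, *Snai2*, *Zeb1* and *Zeb2* fell in both, with *Snai2* down 5.06-fold and 4.18-fold. *Snai1* fell 2.23-fold in the libraries labelled WT and was 1.93-fold lower in those labelled KO. With 1 FPKM added to all values *Vim* and *Snai2* remained past 2-fold in both and the other genes did not.

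From ES cells to day 6, 4 members rose in the libraries labelled WT, against 22.9% of 12814 genes, and 4 fell, against 15.1%. *Cdh2* rose 4.43-fold, *Twist1* 2.70-fold, *Zeb2* 2.37-fold and *Zeb1* 2.26-fold. *Esrp1* fell 9.64-fold, *Cdh1* 6.00-fold, *Epcam* 3.88-fold and *Snai2* 2.89-fold. With 1 FPKM added *Zeb1*, *Zeb2* and *Snai2* were no longer past 2-fold, and relative to the median log2 ratio of all genes, 0.20, *Zeb1* was not. In the libraries labelled KO 1 member rose, against 16.8% of 12681 genes, and 3 fell, against 9.53%. *Twist1* rose 2.51-fold, and *Esrp1* fell 3.95-fold, *Snai2* 2.27-fold and *Vim* 2.26-fold. *Snai2* was no longer past 2-fold with 1 FPKM added. *Cdh2* was at 5.30 FPKM in the ES library and 7.74 FPKM in the day 6 library labelled KO.

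Spinal cord and ES cells labelled WT share 1 table. Of the members, 3 were higher in spinal cord, against 30.3% of 14123 genes, and 5 were lower, against 35.7%. *Cdh2* was 6.32-fold, *Zeb2* 6.43-fold and *Zeb1* 3.66-fold higher. *Epcam* was 1190-fold, *Cdh1* 78.4-fold, *Twist1* 3.79-fold and *Snai1* 3.54-fold lower, and *Esrp1*, at 26.3 FPKM in ES cells, is listed at 0. With 1 FPKM added the log2 ratio of *Epcam* went from -10.22 to -7.23 and that of *Zeb2* from 2.68 to 1.99. The median of all genes was -0.26, and the same 8 members were past 2-fold relative to it. The count of higher members is near the share of all genes, and 66.0% of all genes were past 2-fold in either direction. The counts therefore do not set the members apart from other genes. *Snai1* and *Twist1* were lower in spinal cord by far smaller factors than *Cdh1* and *Epcam*.

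The wider epithelial program was read from 32 genes for tight junctions, desmosomes, simple keratins and epithelial transcription factors. None was past 2-fold between the labels in ES cells, against 1.04% of all genes, and 1 on day 2, the keratin *Krt8*, against 2.48%. Without the minimum of 1 FPKM 2 were past 2-fold on day 2, 1 higher and 1 lower. On day 4, 25 were higher in the library labelled KO, against 12.1% of all genes, and none lower, with a median log2 ratio of 2.01. *Grhl3*, a grainyhead factor of surface epithelium, was at 0.752 and 8.47 FPKM (log2 ratio 3.49), and *Cldn4*, a tight junction claudin, at 35.8 and 334 FPKM (log2 ratio 3.22). On day 6, 22 were higher, against 10.5%, and none lower, with a median of 1.32. The keratins of simple epithelia led there, *Krt8* at 47.2 and 441 FPKM and *Krt18* at 60.4 and 484 FPKM.

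The same genes were followed from ES cells to day 6. In the libraries labelled WT 16 of the 32 fell past 2-fold, against 15.1% of all genes, and 1 rose, against 22.9%, with a median log2 ratio of -1.06. In those labelled KO 4 fell, against 9.53%, and 7 rose, against 16.8%, with a median of 0.12, close to the 0.15 of all genes. *Grhl2* fell in both, from 6.83 to 0.456 FPKM and from 10.2 to 1.25 FPKM, and so did *Rab25*, a small GTPase of epithelial recycling, from 17.2 to 1.78 and from 20.8 to 2.42 FPKM. *Krt19* rose from 17.8 to 133 FPKM in the libraries labelled KO. Spinal cord was past 2-fold lower than ES cells for 29 of the 32, against 35.7% of all genes (median log2 ratio -5.17). In spinal column, where 20 of the 32 were above 1 FPKM, 12 were higher in the library labelled KO, against 8.98% of all genes, led by *Rab25* at 0.048 and 15.8 FPKM, and 19 were without the minimum of 1 FPKM.

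The mesenchymal genes, 24 for collagens, matrix proteins, smooth muscle actin and mesenchymal transcription factors, were not opposite to the epithelial ones. None was past 2-fold between the labels in ES cells or on day 2, where 1.04% and 2.48% of all genes were. On day 4, 17 were higher in the library labelled KO, against 12.1% of all genes, and 1, the smooth muscle actin *Acta2*, was lower, against 4.31%, and with 1 FPKM added 11 were higher and none lower. *Lum* and *S100a4* had the highest ratios, *Lum* at 0.056 and 1.35 FPKM and *S100a4* at 0.344 and 7.36 FPKM. On day 6, 16 were higher, against 10.5%, and none lower, against 9.85%, with *Tagln*, a smooth muscle protein, at 5.44 and 23.3 FPKM and *Col1a2* at 7.83 and 26.8 FPKM. Epithelial and mesenchymal lists were thus both higher in the day 4 and day 6 libraries labelled KO, with median log2 ratios of 2.01 and 1.78 on day 4 against -0.03 for all genes.

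The mesenchymal genes were lower on day 2 than in the ES libraries. Of the 24, 18 fell past 2-fold in the libraries labelled WT, against 7.94% of all genes, and 17 in those labelled KO, against 8.35%, and none rose in either. Over the same step the summed FPKM of 10 fibroblast genes, 7 of them in this list, went from 479 to 85.5 under the label WT and from 522 to 94.9 under the label KO, and the ES cells were grown on fibroblasts. The part of feeder RNA in these levels was not tested. *Acta2* fell from 153 to 0.847 FPKM between ES cells and day 6 labelled WT and from 170 to 1.75 FPKM in those labelled KO. In spinal column 4 were higher in the library labelled KO, against 8.98% of all genes, and 1, fibronectin (*Fn1*), was lower at 57.5 and 24.8 FPKM, against 8.49%.

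**Figure D4:**
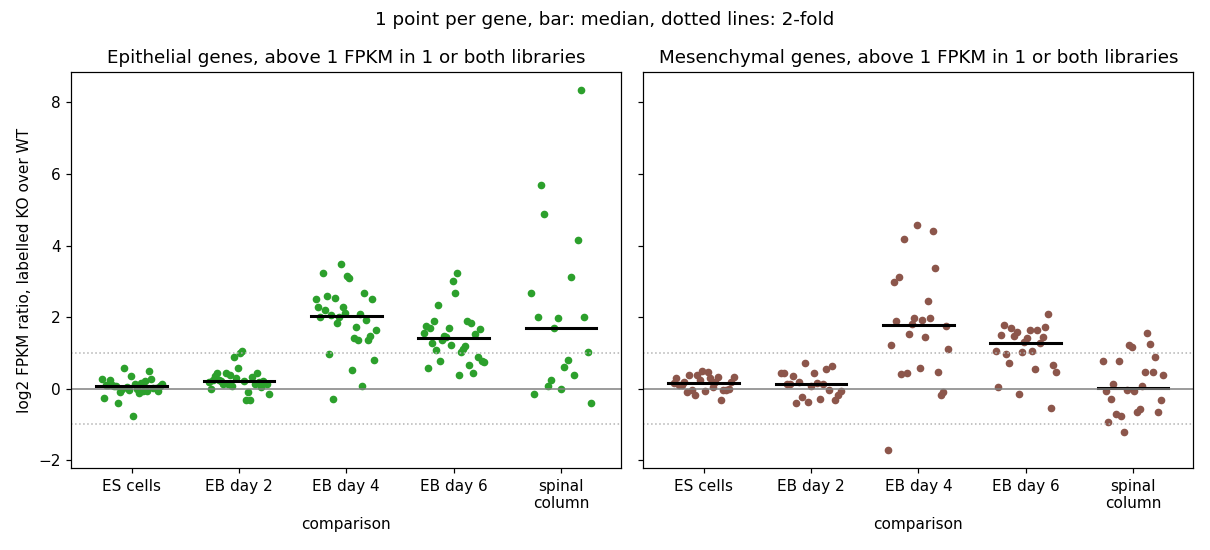
Log2 FPKM ratio, library labelled KO over library labelled WT, of the epithelial (left) and mesenchymal (right) gene lists in 5 comparisons, 1 point per gene above 1 FPKM in 1 or both libraries, with a bar at the median of the points and dotted lines at 2-fold. A gene listed at 0 in a library has no point. Both lists lie near 0 in ES cells and on day 2 and above it on days 4 and 6, and in spinal column the epithelial list does so while the mesenchymal list has a median of 0.01.

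Of 19 genes for other cadherins and catenins, 8 were above 1 FPKM in ES cells and 10 on day 2. None of these was past 2-fold between the labels, against 1.04% and 2.48% of all genes. Without the minimum 5 were past 2-fold in ES cells and 4 on day 2. On day 4, 3 were higher in the library labelled KO, against 12.1% of all genes, and 1 lower, against 4.31%, and with 1 FPKM added 2 were higher and none lower. The higher ones were P-cadherin (*Cdh3*, 1.83 and 8.84 FPKM) and plakoglobin (*Jup*, 3.61 and 17.5 FPKM), which are also in the epithelial list, and *Cdh11*, which is also in the mesenchymal list. On day 6, 3 were higher, against 10.5%, and 4 lower, against 9.85%, the lowest ratios being those of the neural catenin *Ctnna2* (5.41 and 0.222 FPKM) and of *Cdh22* (3.09 and 0.216 FPKM). In spinal column 7 were lower under the label KO, against 8.49% of all genes, and none was higher, and with 1 FPKM added 2 were lower. In spinal cord 12 were past 2-fold higher than in ES cells, against 30.3% of all genes, and 3 lower, against 35.7%, and *Cdh8* was at 23.3 FPKM in spinal cord against 0.013 FPKM in ES cells.

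The cofactors through which Snai and Zeb proteins repress, 13 genes for CtBP, histone deacetylase, CoREST and Polycomb proteins and for regulators of SNAI1, differed little between the labels in culture. None was past 2-fold between the labels in any of the 4 cultures, where between 1.04% and 20.4% of all genes were. The median log2 ratios lay between -0.04 and 0.11. In spinal column 1 of the 13 was lower, against 8.49% of all genes, *Gsk3b*, the kinase that marks SNAI1 for breakdown, at 21.0 and 8.47 FPKM. Between spinal cord and ES cells 10 of the 13 were past 2-fold lower, against 35.7% of all genes, among them the Polycomb enzyme *Ezh2* at 87.0 and 4.12 FPKM, and 2 were higher, against 30.3%, *Gsk3b* and *Ctbp1*.

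Among 14 genes for signals that induce the mesenchymal state, 1 was lower in the ES and day 2 libraries labelled KO, where 1.04% and 2.48% of all genes were past 2-fold in either direction, *Fgf8*, at 5.87 and 1.30 FPKM in ES cells and 5.35 and 0.657 FPKM on day 2. On day 4, 5 were higher, against 12.1% of all genes, and none lower, against 4.31%, and 3 were higher with 1 FPKM added. *Nodal*, the TGF-beta family ligand of early mesendoderm, was at 1.08 and 14.1 FPKM (log2 ratio 3.71), and *Wnt3*, a primitive streak signal, at 0.753 and 4.10 FPKM (log2 ratio 2.45). On day 6, 4 were higher, against 10.5%, among them *Nodal* at 14.8 and 48.0 FPKM, and 1, the receptor *Tgfbr1*, was lower at 20.5 and 7.71 FPKM, against 9.85%. In spinal column none was past 2-fold in either direction, where 17.5% of all genes were.

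Markers of other cell types moved with these genes, and in bulk samples fewer cells of a type and less RNA per cell cannot be told apart. The summed FPKM of 10 fibroblast genes was 479 and 522 in the ES libraries labelled WT and KO, 85.5 and 94.9 on day 2, 7.24 and 41.9 on day 4 and 63.0 and 160 on day 6, and none of the 10 was at 0 in any library. The ES cells were cultured on fibroblasts, which express *Vim*, *Snai2*, *Zeb1* and *Twist1* themselves, and 7 of the 10 fibroblast genes are also in the mesenchymal list. All 10 were past 2-fold higher in the day 4 library labelled KO, against 12.1% of all genes, and 7 on day 6, against 10.5%. The part of fibroblast RNA in the levels of the members was not tested.

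ES cell and neural markers moved as well. The sum of 5 ES cell genes, led by *Pou5f1*, was 1342 and 1316 FPKM in ES cells and 1040 and 1139 on day 2. It was 30.1 and 180 FPKM on day 4 and 342 and 886 on day 6. All 5 were past 2-fold higher in the day 4 library labelled KO, against 12.1% of all genes, and 4 on day 6, against 10.5%. The sum of 6 neural progenitor genes was 321 FPKM in the day 4 library labelled WT and 152 in that labelled KO. On day 6 it was 160 and 116 FPKM. Under the label KO 4 were lower past 2-fold on day 4, against 4.31% of all genes, and 5 on day 6, against 9.85%. The sum of 6 neuron genes was 31.1 and 35.9 FPKM on day 4 and 810 and 108 FPKM on day 6. In the day 4 library labelled KO 2 were lower past 2-fold, against 4.31% of all genes, and none higher, against 12.1%. In that of day 6, 6 of 6 were lower, against 9.85%. The share of these cell types in the members' ratios was not tested.

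In spinal column the libraries differed in skin genes. Of 12 epidermal genes, a list added after the spinal column values were seen, 11 were measured. All 11 were past 2-fold higher in the library labelled KO, against 8.98% of all genes. They summed to 19.0 FPKM in the library labelled WT and 1047 FPKM in that labelled KO, with *Krt14*, a keratin of basal epidermis, at 0.272 and 77.3 FPKM. The sum in spinal cord was 29.6 FPKM. In the cultures it was also higher under the label KO on day 4, at 6.07 and 55.2 FPKM, and on day 6, at 29.6 and 119 FPKM. On both days 2 genes, *Sfn* and *Krt15*, were past 2-fold higher, against 12.1% and 10.5% of all genes. The lower ones were 1 on day 4 and 2 on day 6, against 4.31% and 9.85%. In ES cells the list summed to 198 FPKM, of which *Sfn* alone gave 195 FPKM in the library labelled WT. Skeletal muscle genes summed to 3946 and 1114 FPKM. Of the 5 above 1 FPKM, however, 1 was higher in the library labelled KO, against 8.98% of all genes, and 1 lower, against 8.49%. The other 3 were not past 2-fold, and the median log2 ratio of the list was 0.13. The sums were for fibroblast genes 3698 and 3023 FPKM and for neuron genes 713 and 454 FPKM in the spinal column labelled WT and KO. *Epcam*, *Esrp1* and *Rab25* were higher in the same library as the epidermal genes, and the part of epidermal RNA in their ratios was not tested.

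**Figure D5:**
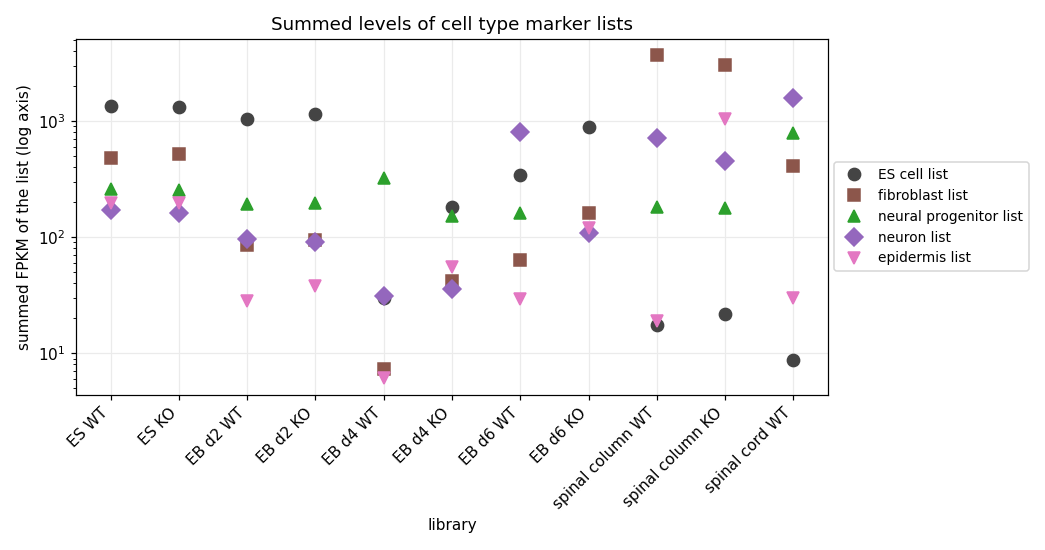
Summed FPKM of 5 cell type marker lists (log axis) in the 11 libraries, 1 symbol per list. The fibroblast list is high in ES cells, lowest in the day 4 library labelled WT at 7.24 FPKM and highest in spinal column, and the epidermal list stands at 1047 FPKM in the spinal column labelled KO against 19.0 FPKM in that labelled WT.

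The remaining marker lists are given by their sums in the libraries labelled WT and KO. Endothelial genes summed to 5.93 and 14.3 FPKM on day 4, to 9.76 and 27.9 FPKM on day 6 and to 119 and 128 FPKM in spinal column. On day 6, 3 of them were past 2-fold higher under the label KO, against 10.5% of all genes. Neural crest and Schwann cell genes, from cell types in which *Snai2*, *Twist1* and *Zeb2* are known to act, summed to 4.26 and 15.0 FPKM on day 4, 8.88 and 26.0 on day 6 and 181 and 143 in spinal column. Chondrocyte genes summed to 10.9 and 30.7 FPKM on day 4, 19.2 and 10.5 on day 6 and 184 and 108 in spinal column, endoderm genes to at most 32.5 FPKM in any library, and astrocyte genes to 344 FPKM in spinal cord and at most 82.1 FPKM elsewhere.

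For each cadherin the genes with the most similar pattern were ranked by Pearson's r of log2(FPKM + 1) over the 11 libraries, among 10226 genes above 10 FPKM in at least 1 library. The 5 nearest to *Cdh1* were *Frrs1*, *Morc3*, *Hspa9*, *Jade1* and *Cldn7*, each at r = 0.99, and over the 8 culture libraries alone their r lay between 0.94 and 0.97. Of these *Cldn7*, a claudin, is also in the epithelial list. The 5 nearest to *Cdh2* were *Top2b* at 0.99, *Elovl2* and *Ephb2* at 0.98, and *Efna5* and *Nrcam* at 0.97, with r between 0.98 and 0.99 over the culture libraries. The libraries share normalization in pairs and fall into culture and tissue, so these values describe the ranking and carry no test.

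The ChIP-seq peaks were then set against the members' start sites. The lists hold 10415 TAF9B peaks and 8620 RNA POL2 peaks in mm9. Each comes from 1 library of HBG3 EBs, another cell line than the RNA-seq cultures, collected later than the last RNA-seq day. A TAF9B peak had its midpoint within 500 bp of a start of 2 members, *Snai1* and *Snai2*, against 30.3% of the 11005 genes above 1 FPKM on day 6. An RNA POL2 peak did so for 1 member, *Vim*, against 53.7% of those genes. Both counts are of 10 members, and the TAF9B count is near the share of all genes. With peaks above the median score of their list 2 members had a TAF9B peak, against 19.8% of genes.

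At *Snai1* the TAF9B peak (mm9 chr2:167363439-167363686, score 104) was centred 133 bp before the start and lay outside the transcript. It covers 242 of the 300 bases of the promoter printed above, which matched mm9 letter for letter, and its E-box lies in the covered stretch. At *Snai2* 2 TAF9B peaks lay 347 bp (score 74.9) and 39 bp (score 103) before the start, the nearer one at mm9 chr16:14705813-14706000. The median score of the TAF9B list was 83.3. No RNA POL2 peak overlapped any of the 3. These genes were at 6.40 and 1.01 FPKM in the day 6 library labelled WT, and *Snai1*, but not *Snai2*, was past 2-fold higher in that labelled KO.

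At *Vim* the RNA POL2 peak (mm9 chr2:13495068-13496465, score 618, with a list median of 134) was centred 187 bp after an annotated start, in a non-coding part of an exon, and covers all 300 bases of the printed promoter, which lies inside the gene span given above because GENCODE begins *Vim* upstream of the RefSeq start. *Cdh2* had an RNA POL2 peak of score 229 in a non-coding part of an exon, 519 bp after the start and so just outside the limit, and a TAF9B peak of score 55.6 in an intron. Intronic TAF9B peaks also lay in *Zeb1* (score 76.8, 24.0 kb after the start) and in *Zeb2* (score 53.4, 109 kb after the start and beyond the 50 kb for assignment), the latter nearest to the start of another gene, *Gtdc1*. *Epcam* had an RNA POL2 peak 22.4 kb before its start (score 316) and none at its promoter. No TAF9B or RNA POL2 peak was assigned to *Cdh1*, *Esrp1* or *Twist1*. In the day 6 library labelled WT, of another cell line and an earlier day than the peaks, *Cdh1* was at 24.3 FPKM and *Twist1* at 11.8 FPKM.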

How the data were processed

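Poly-A RNA-seq gave 1 library per condition. The authors mapped reads against RefSeq genes with TopHat and deposited FPKM values (length- and depth-scaled fragments) from Cuffdiff, in 6 tables of 2 libraries each. They mapped ChIP-seq reads to mm9 with Bowtie and deposited MACS peak lists with a score per peak. Tool versions are not given in the sources used here. The deposited columns of fold changes and p-values hold the authors' own comparisons and were not used. The tables hold no read counts, low FPKM values did not fall on whole-read steps, and depth is thus unknown. The ES library labelled WT stands in 2 tables, which differ by a near-constant factor (median 1.09 over 11679 genes, 5th to 95th percentile 1.089 to 1.090).

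Symbols were assigned through RefSeq accessions. Log2 ratios carry no pseudocount, and a value listed at 0 got no ratio. A gene was past 2-fold when above 1 FPKM in at least 1 library and more than 2-fold apart. Positions are 1-based, from GENCODE vM1 in mm9. A peak at a start had its midpoint within 500 bp, a distal peak was assigned within 50 kb, and overlap meant 1 bp. The alternatives were 1 FPKM added to both values, no minimum, centring on the median gene, the other table of the ES library, a distance of 5 kb and the upper part of the peak scores. The alternatives for the gene lists and the epidermal list were chosen after seeing the data. The members, lists and rules were chosen with earlier results of these data known. The text names the 10 members, *Taf9b*, the 5 genes nearest to each cadherin, and of each list the largest rises and falls past 2-fold or members whose role it explains. *Sfn*, *Krt14* and the catenin and signal genes beyond these were named after their values were seen. Python 3.11.15 was used with numpy 2.4.6, pandas 2.3.3 and matplotlib 3.10.9.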

Additional observations from a re-analysis of the deposited data

Results flagged for a closer look

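*Taf9b*, the targeted gene, moved one way in the cultures and the other way in tissue. Its log2 ratio, library labelled KO over library labelled WT, was 2.51 in ES cells, 2.98 on day 2, 1.12 on day 4 and 1.55 on day 6, and -1.01 in newborn spinal column. Each ratio rests on 1 library per label, and the difference between cultures and tissue was not tested.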

How the results depend on the processing

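Counts, log2 ratios and peak counts were recomputed. A ratio past 2-fold could not change sign under these settings, so its sign was not put to a check. Adding 1 FPKM to both values keeps the sign, and centring or the other table of the ES library shifts a ratio too little. The *Snai1* ratio of day 6 to ES cells labelled WT, near 0 at a log2 ratio of 0.06, was -0.14 when centred and -0.06 with the other table of the ES library. The cadherin ratios and marker sums were not recomputed. Of 25 counts of members recomputed, 24 kept their size within 1.5 times. With 1 FPKM added, 74 log2 ratios of members did so and 5 did not. The other settings could not move a ratio that far. Dropping the minimum leaves it unchanged, and centring or the other table of the ES library shifts it by a smaller constant. With 1 FPKM added to both values, 5 members were past 2-fold between day 6 and ES cells labelled WT, 2 higher and 3 lower, in place of 8. Within 5 kb of a start, 2 members had an RNA POL2 peak in place of 1. The 5 ratios that moved did so with 1 FPKM added and were those of *Zeb2*, *Epcam* and *Esrp1*. Of 120 counts of list genes, 106 kept their size. Replicates could not be paired because each condition is 1 library with no replicate number, and for the same reason no replicate could be left out. A fit over the stages, which would take stages as replicates of a label, was not run. Low levels such as those of *Snai2* in EBs and *Esrp1* in tissue are limited by a depth that is unknown.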
